A study of Mus musculus with 10 samples.

Results

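The 81 genes described here encode the proteins of the mouse cytosolic ribosome. They were taken by symbol (Rpl or Rps followed by a number, with a, l or x allowed at the end, plus Rplp0 to Rplp2 and Rpsa) from 32903 genes in the table. Of the 83 symbols that match, Rpl6l and Rps4l are annotated pseudogenes and were left out. Large-subunit genes numbered 50 and small-subunit genes 31. RNA came from preadipocytes, the committed precursors of fat cells. They were labelled male, of C57BL/6 mice of wild-type genotype, and of inguinal subcutaneous adipose tissue (iSAT). In 5 libraries the cells had received the vehicle DMSO, and in the other 5 BPS at 2.5 µM, dissolved in DMSO, so all cells were exposed to the solvent. BPS, or bisphenol S, is used in place of bisphenol A, to which it is structurally related, and the study's title concerns the pro-adipogenic action of such compounds. The labels do not say how long the cells were exposed, nor whether replicates were separate animals or dishes, so p-values measure the spread between these libraries, which may be technical.

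A cytosolic ribosome joins a small subunit, which decodes the mRNA, to a large subunit, which forms peptide bonds. Each subunit is built in the nucleolus from ribosomal RNA and its own set of proteins, with the help of assembly factors that leave before translation begins. Most ribosomal protein mRNAs start with a C followed by a run of pyrimidines, the 5′ terminal oligopyrimidine (TOP) tract, through which the mTORC1 kinase and LARP1 control their translation. Proliferating progenitors such as preadipocytes carry these mRNAs at high levels. RNA abundance, the only quantity measured here, does not report translation.

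Start sites of some members are printed first, because the TOP tract is the sequence these genes are known to share. Rps7 and Rps15a were higher in every BPS library than in every DMSO library, and Rps12 and Rpl7a had estimates below 0. Rps27 and Rps27l are a parent and paralog compared below. Each line runs 5′ to 3′ on the gene's own strand from 60 bases before the annotated start to 20 bases from it onward (RefSeq, GRCm38.p6). Capitals mark a TOP-like tract, a C followed by at least 4 C or T, that begins within 10 bases of the start. It need not be the mRNA's own 5′ end. In Rps27 and Rps27l it ends before the annotated start, and in Rps7 and Rps12 it begins 8 and 9 bases into the annotated mRNA. Rps27l has a further annotated start, not printed, without such a tract.
Rps7, chr12:28635934-28636013, minus strand: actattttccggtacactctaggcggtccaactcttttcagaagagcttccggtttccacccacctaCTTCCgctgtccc
Rps15a, chr7:118116128-118116207, minus strand: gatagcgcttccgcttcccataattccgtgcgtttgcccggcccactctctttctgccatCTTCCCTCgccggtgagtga
Rps12, chr10:23787190-23787269, minus strand: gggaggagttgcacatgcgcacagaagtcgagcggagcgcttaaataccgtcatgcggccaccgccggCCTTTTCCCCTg
Rpl7a, chr2:26910747-26910826, plus strand: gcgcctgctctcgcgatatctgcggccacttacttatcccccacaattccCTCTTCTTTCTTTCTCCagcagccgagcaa
Rps27, chr3:90213629-90213708, minus strand: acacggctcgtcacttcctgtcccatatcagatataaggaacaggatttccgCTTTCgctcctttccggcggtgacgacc
Rps27l, chr9:66946026-66946105, plus strand: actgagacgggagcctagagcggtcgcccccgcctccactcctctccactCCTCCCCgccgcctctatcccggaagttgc

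A promoter sequence was matched for 61 of the 81 genes. On the sense strand, a C followed by at least 4 C or T, with that C within 10 bases of an annotated start, was present in 39 of the 61 (63.9%). The share was 34.4% over all 27025 genes with a promoter sequence and 37.2% over the 11456 of them tested below. CCGGAA was searched on both strands of the 300-base window, and a gene counted if any of its promoters held it. It was present in 54.1% of the 61 ribosomal protein genes, against 16.7% of all genes with a promoter sequence and 29.2% of those tested. AAGATGGC was present in 8.2% against 3.19% and 5.05%, and TATAAA in 11.5% against 15.7% and 9.49%. A TOP-like tract sits in Rps7 and Rps15a, which were higher in every BPS library than in every DMSO library. Of other members that separated in this way, Rpl5 and Rps13 had no such tract and Rpl10a had it at only some of its annotated starts. No promoter sequence was matched for Rpl7 and Rpl30. The tract is also in Rps12, Rps27l, Rpl14 and Rpl7a, the 4 members with an estimate below 0, in Rps27l at only some of its annotated starts.

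Total estimated counts per library ran from 37920689 to 42717227. Of the 81 members, 78 passed the filter on low counts and were tested, 47 of the large subunit and all 31 of the small. The 3 that did not pass were Rpl10l, Rpl3l and Rpl32l. Rpl10l, a testis gene, had 0 counts in every library, and Rpl3l, a gene of heart and skeletal muscle, had 6 to 19. Rpl32l had 1 to 4. Preadipocyte markers fixed for the check (12 of 12) were above 3 counts in every library, with a summed level of 44400 to 47000 CPM (counts scaled to the same library size, after TMM factors) in DMSO and 43100 to 48400 in BPS. Col1a1 and Col1a2, at 21820 and 19780 CPM in DMSO and 21910 and 20360 in BPS, made up most of that sum. Of the other preadipocyte markers, Cd34 and Thy1 were higher under BPS, by 0.278 and 0.191 on the log2 scale (edgeR adjusted p = 0.000428 and 0.00129), with groups that did not overlap, and Pdgfra had an estimate of -0.066 (adjusted p = 0.0777). The part of these markers in the results was not tested. The 6 adipocyte markers summed to at most 0.228 CPM, with Adipoq, Lep, Cidec, Retn and Cfd at or under 3 counts. Macrophage markers summed to 11.4 to 18.2 CPM in DMSO and 12.4 to 20.9 in BPS, endothelial markers to 17.9 to 23.5 and 17.4 to 23.3. Mesothelial markers summed to 9.06 to 11.0 and 11.0 to 12.9 CPM, and epithelial markers to at most 0.451. The 7 mural markers summed to 70.8 to 77.9 CPM in DMSO and 84.5 to 93.0 in BPS, ranges that do not overlap, and their part in the results below was not tested. In such bulk samples, fewer cells of a type and less RNA per cell cannot be told apart.

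One library stood apart within the ribosomal protein genes. In DMSO replicate 1, only 2 of the 78 tested members were above their own mean over the 10 libraries, with a median deviation of -0.063 on the log2(CPM + 0.5) scale. The medians of the other DMSO libraries were -0.004, -0.006, 0.020 and -0.020 for replicates 2 to 5, and those of BPS replicates 1 to 5 were 0.014, 0.021, 0.043, 0.003 and -0.009. BPS replicate 3 was highest, with 77 of 78 members above their mean, while BPS replicate 5 had 33, so libraries of both groups lay on either side. The median over 1455 other genes with a coding length under 600 bases was also lowest in DMSO replicate 1, at -0.026. The main results below are therefore also given without that library.

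**Figure D1:**
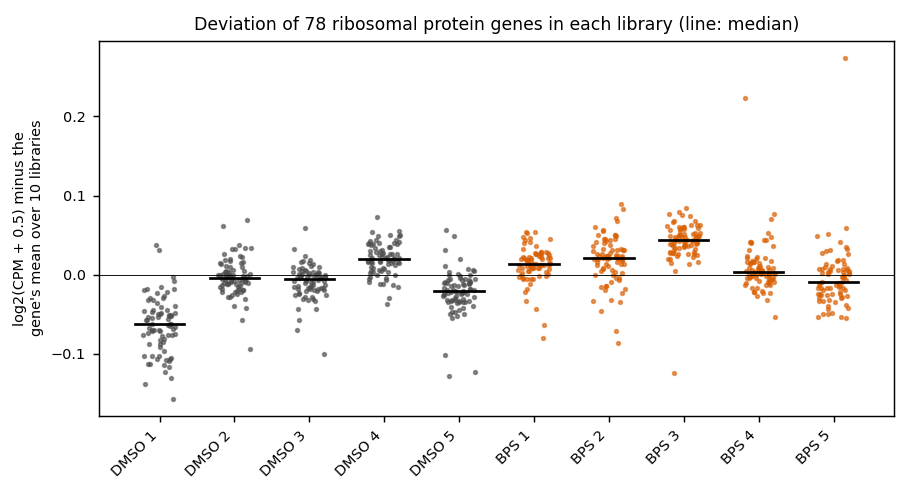
Deviation of each of the 78 tested ribosomal protein genes from its own mean over 10 libraries, on the log2(CPM + 0.5) scale, for 5 DMSO (grey) and 5 BPS (orange) libraries. Points are genes and lines are medians, which run from -0.063 in DMSO replicate 1 to 0.043 in BPS replicate 3; the highest points in BPS replicates 4 and 5 are Rps27a.

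As a family, the 81 genes held close to the same part of the RNA in both groups. They took 4.033, 4.207, 4.183, 4.277 and 4.167% of the counts assigned to genes in DMSO replicates 1 to 5 (mean 4.173 ± 0.0891%, SD, n = 5). The BPS libraries gave 4.249, 4.191, 4.296, 4.184 and 4.155% (4.215 ± 0.0564%, SD, n = 5). The groups overlapped, and the difference of 0.0419 percentage points was smaller than the SD of either group. Without DMSO replicate 1 the difference was 0.0065 percentage points, and the lowest and highest of all 10 fits that each left out 1 library were 0.0065 and 0.0675. The large subunit took 2.557 ± 0.0531% in DMSO and 2.583 ± 0.0356% in BPS, the small subunit 1.616 ± 0.0361% and 1.632 ± 0.0211%.

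**Figure D2:**
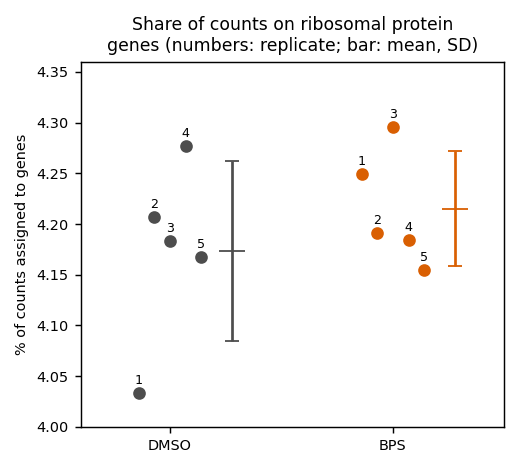
Percent of the counts assigned to genes that fell on the 81 ribosomal protein genes, per library (points, numbered by replicate), with mean and SD for 5 DMSO and 5 BPS libraries. The axis starts at 4%, and the values overlap, with DMSO replicate 1 lowest at 4.033% and BPS replicate 3 highest at 4.296%.

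Gene by gene, 2 of the 78 tested members were higher under BPS and 0 were lower in edgeR's quasi-likelihood test at an adjusted p under 0.05 (Benjamini-Hochberg over all genes). Rpl30 was one of them. That is 2.56% of the members, beside 4.88% of all 14597 genes tested (712 genes, 3.06% higher and 1.82% lower). At an unadjusted p under 0.05 there were 15 of 78 members, all 15 higher, beside 2750 of all 14597 genes (18.8%, with 10.2% higher). Without DMSO replicate 1 there were 8. The estimate was above 0 in 74 of 78 members (50.2% of all genes), and the median log2 fold change was 0.030 against 0.0 for all genes. The quartiles of the members were 0.019 and 0.042, and the extremes were -0.015 and 0.112. In the large subunit 45 of 47 estimates were above 0 and the median was 0.029, and in the small subunit 29 of 31 and 0.032. Without DMSO replicate 1 these medians were 0.020 and 0.015. The members share the libraries and vary together in them, so the count of positive estimates is not a count of independent results. Leaving out DMSO replicate 1 gave a median of 0.017 with 68 members above 0. Scaling by library size alone gave 0.015 with 64, and moved the median of all genes to -0.014.

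The precision was high: the median standard error was 0.0205 on the log2 scale, against 0.0496 for all genes tested. In 75 of 78 members the 95% interval of the BPS over DMSO difference lay wholly inside 1.1-fold in either direction, and in 5512 of all 14597 genes it did. Such precision was not particular to the family. In 24 translation factors and other TOP mRNAs, described below, the median standard error was 0.0162 and 23 intervals lay inside that bound. The exceptions among the ribosomal protein genes were Rps27a, Rpl30 and Rps6, whose upper limits were 0.287, 0.146 and 0.141. Within a group, the median coefficient of variation of the members was 2.42% in DMSO (0.583 to 5.76%) and 1.83% in BPS (0.896 to 12.9%, the highest being Rps27a).

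**Figure D3:**
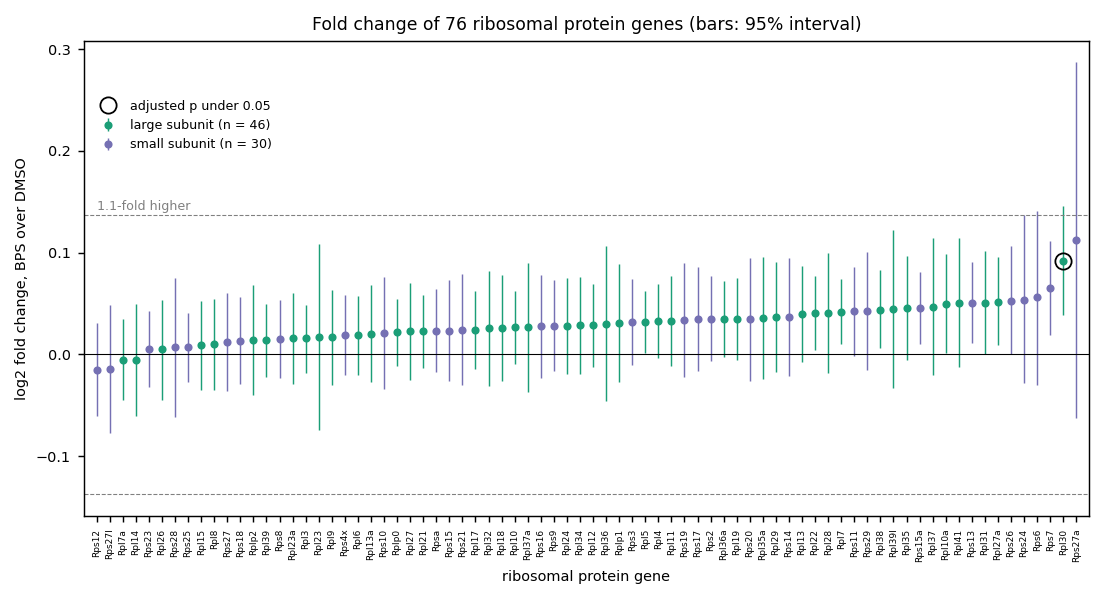
Log2 fold change, BPS over DMSO, of 76 ribosomal protein genes in rising order (2 of the 78 tested are not drawn), with 95% intervals; green is the large and purple the small subunit. The circle marks Rpl30, the dashed lines mark 1.1-fold in either direction, and 72 of 76 points lie above 0.

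Rpl30 encodes a large-subunit protein. It measured 258.4, 277.1, 275.2, 279.1 and 273.5 CPM in DMSO replicates 1 to 5. BPS replicates 1 to 5 gave 284.4, 295.7, 293.7, 296.8 and 282.9 CPM. Each BPS library was above each DMSO library, and DMSO replicate 1 was the lowest of all. The means were 272.7 ± 8.23 and 290.7 ± 6.58 CPM (SD, n = 5), and the log2 fold change was 0.092 (SE 0.0232, edgeR adjusted p = 0.0438). Without DMSO replicate 1 it was 0.073 (edgeR adjusted p = 0.0606), and over all alternatives the adjusted p ran from 0.0067 to 0.101. Of the 10 fits that left out 1 library, 8 lost the call.

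Part of Rpl30 cannot be separated from a copy. The transcribed pseudogene Gm12191 is 99.713% identical to it over 348 bases and held 4.9% as many counts as Rpl30. Its counts were 700.6, 614.8, 512.4, 583.7 and 473.8 in DMSO replicates 1 to 5 and 634.2, 344.3, 470.4, 344.8 and 450.3 in BPS replicates 1 to 5. They were highest in DMSO replicate 1, where Rpl30 was lowest. Adding this copy to Rpl30 left a log2 fold change of 0.073 (edgeR adjusted p = 0.0487).

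In 8 of 78 members (10.3%) all 5 BPS values lay above all 5 DMSO values, and in 0 members below. Over all genes tested, 6.9% had groups that did not overlap, 4.19% with BPS above. The 8 included Rpl5, Rpl7, Rpl10a, Rpl30, Rps7, Rps13 and Rps15a. Dropping a library cannot make separated groups overlap, so these 8 were bound to stay apart. No further member separated without DMSO replicate 1, where 8.65% of all genes did, or without BPS replicate 3, where 8.52% did. Of the genes named here, Rpl30 alone passed the adjusted test. Rps7, a protein of early small-subunit assembly that also binds the p53 regulator MDM2, measured 429.2, 459.6, 454.9, 458.4 and 457.7 CPM in DMSO and 464.3, 468.0, 477.8, 475.3 and 478.8 in BPS. Its lowest BPS value stood just above its highest DMSO value. The log2 fold change was 0.065 (SE 0.0201, edgeR adjusted p = 0.0918), and 0.047 without DMSO replicate 1 (adjusted p = 0.113).

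Rpl5, which with Rpl11 and 5S ribosomal RNA forms a particle that can also bind MDM2, measured 867.2, 872.3, 882.4, 875.6 and 880.8 CPM in DMSO. In BPS it measured 890.2, 913.3, 901.0, 883.7 and 886.8 CPM, so the closest libraries of the groups were 882.4 and 883.7. Its log2 fold change was 0.032 (SE 0.0131, edgeR adjusted p = 0.217). The estimates of Rpl7, Rpl10a, Rps13 and Rps15a lay between 0.042 and 0.051.

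**Figure D4:**
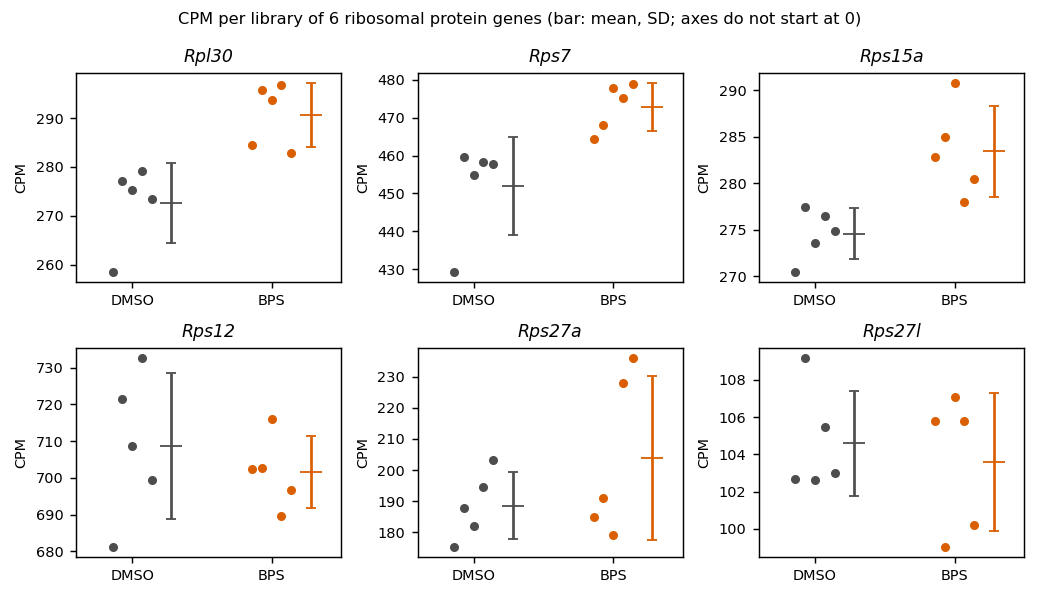
CPM per library of Rpl30, Rps7, Rps15a, Rps12, Rps27a and Rps27l in 5 DMSO (grey) and 5 BPS (orange) libraries, with mean and SD; axes do not start at 0. The groups separate in Rpl30, Rps7 and Rps15a and overlap in the other panels; DMSO replicate 1, the leftmost grey point, is lowest in each of the top panels.

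The highest estimate belonged to Rps27a, which encodes a fusion of ubiquitin and a small-subunit protein, and it did not pass the test. DMSO replicates 1 to 5 measured 175.1, 187.6, 182.1, 194.6 and 203.1 CPM, and BPS replicates 1 to 5 measured 184.7, 191.0, 179.1, 228.0 and 236.2. Only BPS replicates 4 and 5 stood above the DMSO range. The log2 fold change was 0.112 (SE 0.0758, edgeR adjusted p = 0.483), 0.069 without BPS replicate 4 and 0.054 without BPS replicate 5.

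At the other end, Rps12, a small-subunit protein, measured 681.1, 721.5, 708.7, 732.7 and 699.4 CPM in DMSO. The BPS libraries measured 702.5, 702.7, 716.1, 689.5 and 696.8 CPM, inside the DMSO range. The log2 fold change was -0.015 (SE 0.0197, 95% interval -0.060 to 0.031, edgeR adjusted p = 0.763), and -0.029 without DMSO replicate 1. Rps27l, Rpl14 and Rpl7a had estimates of -0.014, -0.005 and -0.005, with adjusted p of 0.841 or more, and Rpl26 followed at 0.005. The sign of Rpl14 turned to 0.016 when the counts of its copy Rpl14-ps1 were added.

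The most abundant members by mean CPM were Rplp0, Rps2, Rpsa, Rpl4 and Rplp1, and none of them passed the test. Rplp0, the base of the large subunit's P stalk, which recruits translation factors, measured 1830, 1888, 1899, 1895 and 1881 CPM in DMSO and 1909, 1911, 1946, 1883 and 1889 in BPS. The groups overlapped, and its log2 fold change was 0.022 (SE 0.0144, edgeR adjusted p = 0.459). Rplp1, another P-stalk protein, stood at 0.031, Rps2, at the mRNA entry channel, at 0.035, Rpsa, which is also known as a laminin receptor, at 0.023, and Rpl4, which lines the peptide exit tunnel, at 0.033. Their adjusted p lay between 0.280 and 0.572. Without DMSO replicate 1 the estimates were 0.012 for Rplp0, 0.007 for Rplp1, 0.021 for Rps2, 0.014 for Rpsa and 0.023 for Rpl4.

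Levels between genes were compared per length, as CPM per kilobase of the longest coding sequence. The median of the 78 members was 996.1, with quartiles of 804.8 and 1253, at 931.3 for the large and 1131 for the small subunit. Highest were Rpl41 at 4828, Rplp1 at 3185, Rpl39 at 2211 and Rplp0 at 1984. Lowest were Rps6 at 54.38, Rpl23 at 92.07, Rpl15 at 104.7, Rpl39l at 129.7, Rps27l at 327.3, Rps24 at 338.9 and Rps27a at 416.5. These levels count only transcripts that could be assigned to a gene. Transcripts without a gene, 98.4% of them predicted models, held 6.9% of all counts, and whether they took reads of the low members was not tested. The coding length leaves out untranslated sequence, so for the shortest genes, such as Rpl41, the value per kilobase is set in part by that choice.

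Several members have paralogs with tissue-restricted or regulated expression, and 6 of the 8 pairs planned had at least 10 counts for both genes in every library. Rpl7l1, a homologue of Rpl7, held 11.0 to 11.3% as many counts as Rpl7 in DMSO and 10.6 to 10.9% in BPS, and the groups did not overlap. The difference of the log2 ratios was -0.044 (exact two-sided permutation p = 0.00794, the smallest that 5 against 5 allows; Benjamini-Hochberg over 6 pairs 0.0476). The estimate of Rpl7l1 itself was -0.003 (SE 0.0160) and that of Rpl7 0.042 (SE 0.0138), so the ratio moved with the parent. With 1 library left out the difference lay between -0.049 and -0.038. The groups were bound to stay apart in these 10 tests, since dropping a library cannot make separated groups overlap. The smallest exact permutation p is then 0.0159, and each of the 10 tests gave it. After adjustment over the pairs, 9 of the 10 were at 0.05 or more, up to 0.0954, and so lost the call. The adjusted value was 0.0477 without DMSO replicate 2, where the pair Rpl22l1 and Rpl22, described next, also reached 0.0159.

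Rpl22l1, the paralog of Rpl22, held 33.3 to 34.7% as many counts as its parent in DMSO and 31.9 to 34.1% in BPS. The difference was -0.051, which missed the threshold (exact permutation p = 0.0317, adjusted 0.0951). Without DMSO replicate 2, the lowest DMSO library, the groups did not overlap and the difference was -0.062 (exact permutation p = 0.0159, adjusted 0.0477). In 9 of the 10 tests that left out 1 library the adjusted permutation p was 0.05 or more, up to 0.191. Rps27l, a p53-inducible paralog of Rps27, held 29.5 to 30.8% and 28.7 to 30.2% (exact permutation p = 0.19). Rpl39l, known for its expression in testis, was present at 19.15 to 20.94 CPM in DMSO and 19.84 to 20.94 in BPS, 5.63 to 6.03% and 5.74 to 6.12% of Rpl39 (exact permutation p = 0.222). Rpl36al over Rpl36a and the transcribed pseudogene Rps4l over Rps4x differed by -0.002 and 0.004, with exact permutation p of 0.96 and 0.849.

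Genes with near-identical copies are uncertain, since the counting divided shared reads. Of the members, 19 had 21 copies at 95% identity or more, and Rplp2 had 1 more, taken by its name. The copies exceeded 5% of the member's counts in 4. Rpl31-ps12 held 40.0% as many counts as Rpl31, 2 copies together 22.3% as many as Rps15a, Rpl14-ps1 9.06% as many as Rpl14, and Rpl37rt 6.28% as many as Rpl37. With 17 of the copies, those annotated or named as pseudogenes, added to their members, 2 members were called and the median was 0.029. Rps27rt is identical to Rps27 and was listed at 0 counts.

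The processed pseudogene Gm9385 (chr9:116040593-116041064, minus strand) shows how little separates a copy from a member. It aligns with Rpl24 (chr16:55966275-55971435, plus strand, GRCm38) over 472 bases with 1 mismatch. The stretch around that base, capitalised, is coding in Rpl24 and is printed for both, because over the aligned part this base alone tells them apart.
Rpl24: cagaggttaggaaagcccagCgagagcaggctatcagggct
Gm9385: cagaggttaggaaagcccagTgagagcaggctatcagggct
Gm9385 held 88.45, 107.9, 149.7, 97.11 and 201.7 estimated counts in DMSO replicates 1 to 5 and 34.9, 0, 0, 0 and 0 in BPS replicates 1 to 5. The groups were wholly apart, lower under BPS, although the copy held only 0.482% as many counts as Rpl24. The log2 fold change of Rpl24 was 0.028 (SE 0.0204, edgeR adjusted p = 0.525) and became 0.015 with the pseudogene's counts added.

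Within members, 20 had 2 transcripts with a mean of at least 100 counts, and the share of the second transcript kept groups apart only in Rps24, a small-subunit gene with alternatively spliced 3′ exons. The second transcript took 23.2, 23.8, 22.4, 21.8 and 24.2% of Rps24 counts in DMSO and 26.8, 24.5, 24.7, 24.3 and 28.1% in BPS. All BPS values were above the DMSO values, by as little as 24.3 against 24.2%. The exact two-sided permutation p was 0.00794 and 0.159 after adjustment over the 20 members, and this comparison was chosen after its values were seen.

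Around the ribosomal proteins, genes of the same pathway were counted in the same test. Of the relatives outside the symbol rule, 6 were tested and 0 were called, with a median of 0.023. Rps3a1, which encodes a small-subunit protein, stood at 0.035 (edgeR adjusted p = 0.147), and Fau, a fusion of a ubiquitin-like domain with a small-subunit protein, at 0.027 (0.449). Rpl36al had an estimate of 0.034.

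Of 24 translation factors and other TOP mRNAs, 3 rose and 0 fell (12.5%, against 4.88% of all genes), with a median of 0.021. Eef1g, a subunit of the elongation factor 1 complex, measured 924.8, 943.9, 951.8, 948.8 and 943.8 CPM in DMSO and 976.7, 1001, 993.6, 969.3 and 972.8 in BPS. Every BPS library was above every DMSO library, and the log2 fold change was 0.060 (SE 0.0139, edgeR adjusted p = 0.0317). Rack1, a scaffold protein of the small subunit, rose by 0.057 (adjusted p = 0.0487), and Nap1l1, a histone chaperone with a TOP mRNA, by 0.083 (adjusted p = 0.0431). Leaving out 1 library took the call from Eef1g in 7 of 10 fits, from Rack1 in 10 and from Nap1l1 in 6. The elongation factors Eef1a1 and Eef2 had estimates of 0.023 and 0.031 and the nucleolar chaperone Npm1 -0.014, and none of them passed.

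Of 56 ribosome biogenesis factors, 4 rose and 0 fell (7.14%, against 4.88% of all genes). Their median was 0.046, and 49 of 56 estimates were above 0, against 7329 of all 14597 genes (50.2%). An unadjusted edgeR p under 0.05 was found in 20 of 56, against 2750 of all 14597 genes (18.8%). Both shares were larger than over all genes. These genes share the libraries, so such counts are not of independent results. Bysl, a small-subunit assembly factor, measured 25.68, 26.24, 26.03, 25.01 and 25.72 CPM in DMSO and 28.81, 29.01, 29.60, 28.69 and 27.26 in BPS. The groups were well apart, and the log2 fold change was 0.156 (SE 0.0281, edgeR adjusted p = 0.00952). Ddx21, a nucleolar RNA helicase, rose from 133.2 to 136.2 CPM in DMSO to 140.3 to 146.0 in BPS, and its estimate was 0.091 (SE 0.0160, edgeR adjusted p = 0.00854). Bysl and Ddx21 stayed called in all 10 fits that left out 1 library. With replicate number as a block, Bysl kept its call (edgeR adjusted p = 0.0424) and Ddx21 lost it (0.053). With the GC and length trend also removed, both were called (edgeR adjusted p = 0.04 and 0.0294). Utp4, of the small-subunit processome, rose by 0.146 (adjusted p = 0.0375) and Nop56, a core box C/D snoRNP protein, by 0.080 (adjusted p = 0.0496). Utp4 lost its call in 8 of the 10 fits and Nop56 in 9.

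No gene passed among 10 snoRNA host genes (median 0.060), 21 genes of the RNA polymerase I machinery (median 0.016; its largest subunit Polr1a 0.037) or 79 mitochondrial ribosomal proteins (median 0.009). At an unadjusted p under 0.05 these lists held 1 of 10, 1 of 21 and 5 of 79 genes, against 18.8% of all genes. Of 21 mTORC1 and TOP mRNA regulators, 1 passed (4.76%, against 4.88% of all genes). Their median was -0.009, with 10 estimates above 0 and 11 below. The gene that passed, Rheb, rose. It is the GTPase that activates mTORC1, measured 119.3 to 125.2 CPM in DMSO and 128.9 to 132.0 in BPS, and had a log2 fold change of 0.097 (SE 0.0180, edgeR adjusted p = 0.0112), called in all 10 fits that left out 1 library. Larp1, which binds TOP mRNAs, had an estimate of 0.306 with a standard error of 0.281, and 0.022 without BPS replicate 2, its highest library at 112.1 CPM; and Rps6kb1, the kinase of the ribosomal protein Rps6, one of 0.010. Of 10 MYC network genes, Mycl rose by 0.413 (SE 0.103, adjusted p = 0.0432) at 1.344 to 1.535 CPM in DMSO and 1.605 to 2.103 in BPS, and lost its call in 9 of 10 such fits. Myc, which drives ribosome production in many cells, stood at 0.012 (adjusted p = 0.897).

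**Figure D5:**
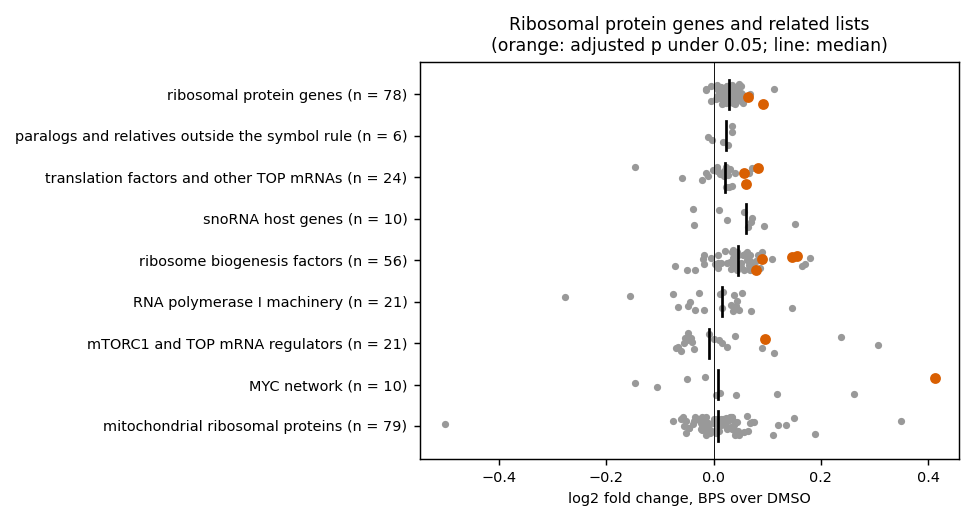
Log2 fold change, BPS over DMSO, of each tested gene in the ribosomal protein family and 8 related lists; orange points have an adjusted p under 0.05 and black lines are medians. The ribosomal protein genes lie between -0.015 and 0.112, and the medians of the related lists run from -0.009 to 0.060.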

How the data were processed

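The table deposited by the authors holds estimated counts for 107384 RefSeq transcripts in 10 libraries, made with kallisto 0.42.4, per the submitters' processing notes. Kallisto divides reads shared by similar transcripts. Index and strand setting were not given in the sources used here. Libraries were made from total RNA with a directional kit, per the labels' protocols. Accessions were matched without version to a RefSeq gene table (GRCm38.p6), which placed 93.1% of counts in 32903 genes. Expected counts were summed per gene and rounded. The filter filterByExpr left 14597 genes, scaled by TMM (factors 0.9854 to 1.008) and tested with edgeR 4.0.16 (quasi-likelihood, no covariates, Benjamini-Hochberg adjustment). The SE is the log2 fold change over the square root of F, and 95% intervals use 8 degrees of freedom. CPM is the count over the TMM-scaled library size. Copies were found with BLASTN 2.17.0 (95% identity over at least 50% of the shorter sequence, GENCODE M21 transcripts), with 1 more, Rplp2-ps1, taken by name. Paralog ratios and transcript shares had exact permutation tests.

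Named genes were all members called, the 5 highest and 5 lowest estimates, the 5 most abundant, paralogs with their parents, Rpl24, up to 5 called genes per related list, and genes fixed by name; Gas5 was among the latter and was not tested. Some genes that the rule picked are not reported here, and stay in the counts and medians. Genes outside that rule, such as those whose groups did not overlap, were named after their values were seen. Members and lists were chosen with earlier results of these data known. Alternatives used DESeq2 1.42.0, limma 3.58.1, other scalings and filters, exact accession versions, single transcripts, added pseudogene counts, a GC and length correction, a replicate block and each library left out. The scripts were tested on simulated data.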

Additional observations from a re-analysis of the deposited data

Results flagged for a closer look

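Of 104 groups of 5 libraries examined for a lone extreme value, 10 held one, where chance gives about 1 in 20 groups, or 5.2. DMSO replicate 1 was lowest and far from the other 4 DMSO libraries in 4 of them. Rpl30 measured 258.4 CPM there against 273.5 to 279.1 in the others, Rps7 429.2 against 454.9 to 459.6 and Rplp0 1830 against 1881 to 1899. The pseudogene Rps4l measured 52.59 CPM against 57.16 to 58.88. These genes share that library, so the flags are not independent.

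In the BPS group, Rpl3 was lowest in replicate 5, at 1050 CPM against 1086 to 1099. Polr1a was highest in BPS replicate 2, at 81.37 CPM against 72.9 to 75.14. The ratio of Rpl22l1 to Rpl22 was lowest in DMSO replicate 2, at 33.28% against 34.41 to 34.66%. The muscle paralog Rpl3l was highest in DMSO replicate 3, at 0.4817 CPM against 0.1579 to 0.2448, and in BPS replicate 2, at 0.4596 against 0.1755 to 0.2491, each on fewer than 20 counts. Gm9385, the copy of Rpl24, was at 0.8777 CPM in BPS replicate 1 and listed at 0 in the other 4 BPS libraries.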

How the results depend on the processing

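The median over the ribosomal protein genes stayed above 0 in every alternative run, between 0.015 and 0.038. The count of 2 called members became 4 with the DESeq2 Wald test and with the GC and length trend removed, 1 with the replicate block and with upper-quartile scaling, and 0 with exact accession versions, library size alone, no filter or unsummed transcripts. Those 4 edgeR fits held 9, 4, 13 and 18 unadjusted p under 0.05, where the main fit held 15. With the GC and length trend removed there were 29 of 78, and 28 with the replicate block as well. The shares over all genes in these alternatives were not counted. Leaving out 1 library gave 0 to 2. Over the related lists, 9 called genes became 5 (exact versions, library size alone), 4 (no filter, replicate block with GC and length trend removed), 3 (replicate block) and 1 (unsummed transcripts), and 3 to 6 with 1 library left out. Deviations from the group mean correlated by -0.078 to 0.1 between libraries with the same replicate number. Differently numbered libraries were not compared, so these values cannot settle whether the libraries were paired. Under the replicate block 0 paralog pairs passed, where the smallest exact p is 0.0625, and 0 to 2 passed with 1 library left out. The share with a TOP-like tract was 47.5% within 5 bases of the start (21.2% of all genes) and 83.6% within 20 (53.3%). Of all calls in the series 62.8% were higher under BPS, and 45.9% with library size alone.

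Signs turned only in genes that did not pass the test. Rps27l became 0.008 with the GC and length trend removed (0.009 with the block), Rpl22l1 0.016 (0.016), and Myc -0.001 (-0.001). Library size alone, which moved the median of all genes by -0.014, gave Rpl26 -0.010, Rpl39 -0.001, Rps27 -0.003, Myc -0.003 and Rps6kb1 -0.005. Upper-quartile scaling gave Rpl7l1 0.002, and added copies gave Rpl14 0.016. With 1 library left out the ranges were -0.008 to 0.030 for Myc, -0.020 to 0.007 for Rpl14, -0.023 to 0.001 for Rpl22l1, -0.008 to 0.019 for Rpl26 and -0.014 to 0.006 for Rpl7a. They were -0.010 to 0.004 for Rpl7l1, -0.003 to 0.021 for Rps27, -0.026 to 0.002 for Rps27l, -0.006 to 0.034 for Rps4l and -0.045 to 0.059 for Rps6kb1. Over 43 named genes, 850 of 983 comparisons kept direction and side of the threshold, 95 lost a call, 5 gained one and 33 turned sign. Beyond that shift of all genes, the cause was not tested.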
